A study of Rattus norvegicus with 46 samples.

Results

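The effect of a ketogenic diet that intact and ischemic brain have in common was read from all 46 libraries of the series, 27 from rats on the ketogenic diet and 19 from rats on the standard (ad libitum) diet. A single diet coefficient was fitted for both tissues, with tissue as an additive term. Genes were described when this joint coefficient passed and the change had the same sign in intact brain alone and in lesions alone. There were 758 such genes among 16140 tested (4.7%), and they are called shared genes below.

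The animals were male Wistar rats, 3 months old at the start. On the ketogenic diet 84% of energy came from fat, 11% from protein and 5% from carbohydrate, and on the standard diet 11%, 24% and 65%. The diets were fed for 2 months before occlusion of the middle cerebral artery (MCAO, a model of ischemic stroke) and for 2 weeks after it, and lesion tissue was taken 14 days after MCAO. The groups were Intact_AL (intact brain, standard diet, 8 libraries), Intact_KD (intact brain, ketogenic diet, 8), MCAO_AL (lesion, standard diet, 11) and MCAO_KD (lesion, ketogenic diet, 19). The labels name the tissue only as brain, and give no brain region. They do not say whether each library is a separate rat, so the tests measure the spread between these samples.

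A ketogenic diet replaces most carbohydrate with fat. The liver then turns fatty acids into ketone bodies, which cross the blood-brain barrier and are burned by neurons and glia in place of part of the glucose. Diets of this kind are an established treatment for drug-resistant epilepsy. An ischemic lesion of this age holds activated microglia, infiltrating phagocytes and a forming glial scar, which intact brain does not hold to that extent. In bulk tissue a lower level can come from fewer cells of a type or from less RNA per cell, and these cannot be told apart. Genes appear in the files as Ensembl IDs only. None of these 30452 IDs could be looked up in the gene table used here (0 matches), so the roles of the genes are not given. For the same reason no cell type or pathway was read, and the labelled tissue was not checked against its markers.

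Library totals ran from 8883068 to 20420918 counts in intact brain and from 15290782 to 30601841 in lesions. The 20 most abundant genes of a library held 24.6% ± 4.5 (SD, n = 8) of counts in Intact_AL and 18.5% ± 3.4 (SD, n = 8) in Intact_KD, but 12.7% ± 0.80 (SD, n = 11) in MCAO_AL and 12.5% ± 1.0 (SD, n = 19) in MCAO_KD. Lesions also varied in their distance to intact brain: on an axis with 0 at the mean of intact libraries and 1 at the mean of lesions, MCAO_AL ran from 0.472 to 1.30 and MCAO_KD from 0.286 to 1.40. The sample numbers in the labels ran from 3 to 59 on the ketogenic diet and from 61 to 90 on the standard diet, so anything that goes with that number cannot be told apart from the diet.

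The joint comparison tested a single diet coefficient, which averages the change in intact brain with that in lesions. A call can therefore come mostly from a single tissue. Of 16140 genes, 453 were higher (2.81%) and 312 lower (1.93%) on the ketogenic diet (edgeR quasi-likelihood test, Benjamini-Hochberg adjusted p under 0.05), together 4.74% of genes. At an unadjusted p under 0.05 there were 3037 genes, 1684 higher and 1353 lower. The changes were small. The median size over shared genes was 0.23 on the log2 scale (a fold of 1.17), with a middle range from 0.19 to 0.28, beside a median size of 0.11 over all genes tested. Shared genes were selected by this same estimate, so their larger size is largely fixed by the call. Of the 758 shared genes, 628 (82.8%) changed by less than 1.25-fold. A fold of 1.5 was reached by 6 higher and 3 lower shared genes, and a fold of 2 by 1 higher and 0 lower.

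The split between higher and lower calls depended on how libraries were scaled. With TMM 59.2% of calls were higher on the ketogenic diet, and with library totals only 71.7% were, 504 higher and 199 lower. No joint call turned its sign under any of the fits tried. In intact brain the 20-gene share moved with diet (24.6% against 18.5%). When it was added to the fit as a covariate, 207 genes were called, 109 higher and 98 lower, of which 192 were among the 765 calls, so most calls were lost in that fit. The change of the 765 genes in their reported direction had a median of 0.21 in that fit (median SE 0.063), beside 0.23 (median SE 0.059) without the covariate. Leaving out MCAO_AL library 82 reduced the calls to 494, and each of the other 45 libraries moved them by less than 1.5 times.

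**Figure D1:**
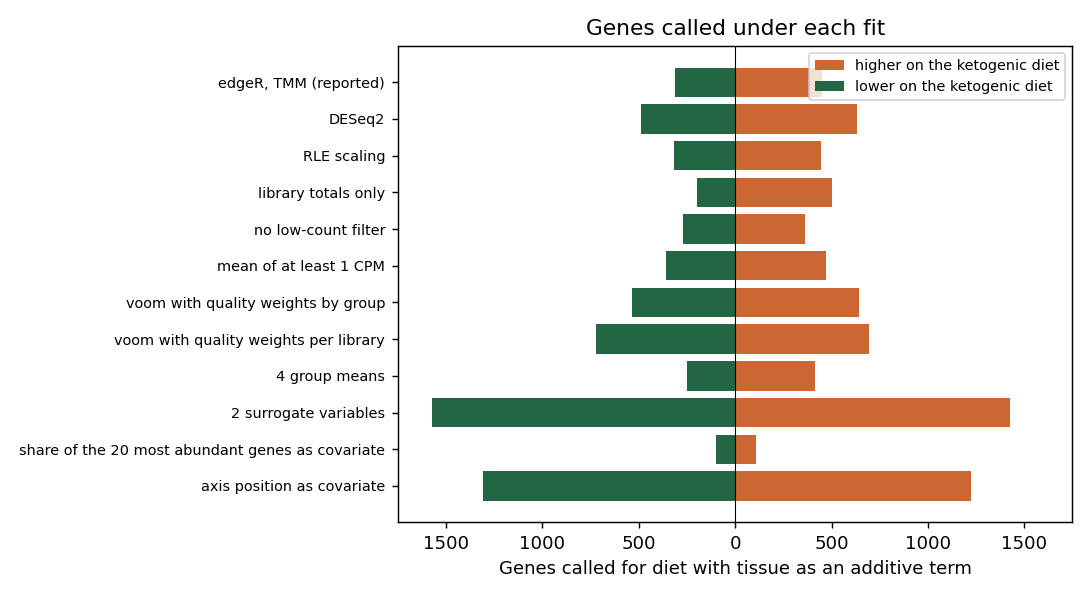
Number of genes called for diet with tissue as an additive term (x axis), to the right for genes higher and to the left for genes lower on the ketogenic diet, under the reported fit (453 and 312) and 11 other fits (y axis). The smallest count is 207, with the 20-gene share as covariate, and the largest is 3003, with 2 surrogate variables.

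Each tissue was then fitted on its own. In intact brain alone 0 of 14746 genes were called (edgeR, 8 against 8 libraries), with 2181 genes, or 14.8%, at an unadjusted p under 0.05; DESeq2 called 259. In lesions alone 117 of 15782 genes were called, or 0.741%, and 106 of these were also joint calls. By these fits 654 shared genes were called in neither tissue by itself. That number rests on the counts for single tissues, which moved widely: in lesions alone there were 506 calls with DESeq2, 183 with library totals only, 21 without a low-count filter, 77 in the fit over 4 groups and 1719 with the axis position as covariate. Of the 765 joint calls, 759 were tested in both tissues and 758 of them (99.9%) had one sign throughout, 449 higher and 309 lower on the ketogenic diet. Over all 14661 genes tested in both, 65.7% had the same sign. The joint coefficient is built from both tissues, so a shared sign among its calls is largely fixed by the call and is a description of the genes, not a test.

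The remaining joint call tested in both tissues was lower by the joint estimate, at -0.22 (SE 0.064). Intact_KD held 11.9 ± 1.6 (SD, n = 8) CPM (counts scaled to a common library total), and Intact_AL 11.8 ± 1.1 CPM (SD, n = 8). MCAO_KD held 8.82 ± 1.2 CPM (SD, n = 19) and MCAO_AL 11.2 ± 1.5 CPM (SD, n = 11). Its difference between tissues did not pass (interaction -0.37, SE 0.12, edgeR adjusted p = 0.797).

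Sizes in each tissue are given as a description, since the joint call favours genes with alike changes in both. In the direction of the joint estimate, the median change of shared genes was 0.24 in intact brain (middle range 0.18 to 0.32) and 0.22 in lesions (0.18 to 0.28) on the log2 scale. Higher genes had medians of 0.25 in intact brain and 0.22 in lesions. Lower genes had medians of 0.23 in each tissue, taken as sizes. The change was larger in intact brain for 414 shared genes and larger in lesions for 344. Over all genes tested the median signed change was 0.0028 in intact brain and 0.021 in lesions. Lesions carried more of the joint estimate, with a median weight of 64.9% over the 339 shared genes whose tissue estimates lay more than 0.1 apart.

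At an unadjusted p under 0.05, 431 of the 758 shared genes passed in intact brain and in lesions with the same sign, 259 higher and 172 lower. Another 278 passed in lesions but not in intact brain, 49 in intact brain but not in lesions, and 0 in neither. These counts follow from the joint call, in which lesions carried more weight, and are given as a description. Over all genes tested in each tissue, 14.8% had an unadjusted p under 0.05 in intact brain and 13.4% in lesions (edgeR).

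**Figure D2:**
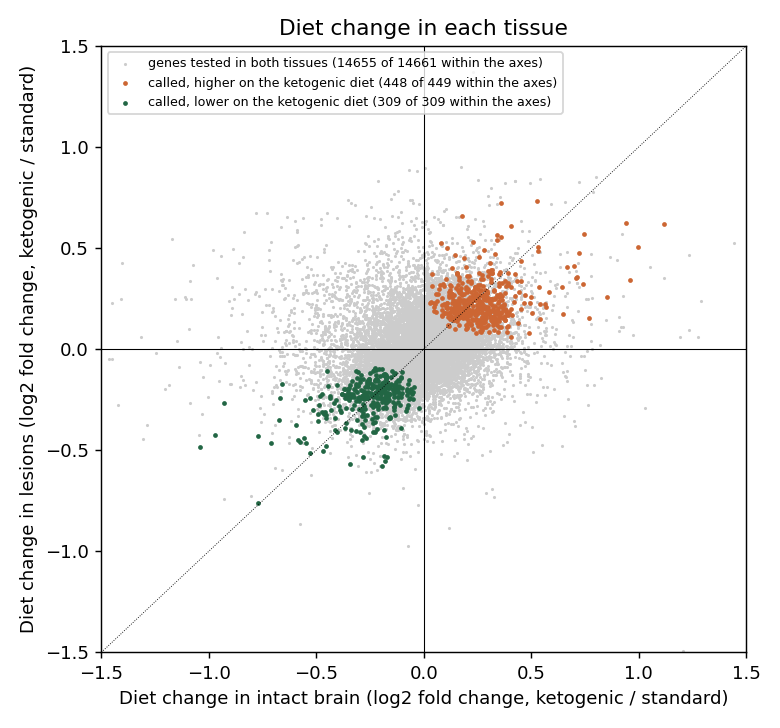
Log2 fold change of diet in intact brain (x axis) against lesions (y axis), each from its own fit, for 14655 of the 14661 genes tested in both tissues (grey) and for 757 of the 758 shared genes (orange higher, green lower on the ketogenic diet); the others lie outside the axes. The dotted line marks equal change, and the shared genes lie on either side of it, with medians of 0.24 in intact brain and 0.22 in lesions.

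A difference between tissues was tested directly by the interaction of diet and tissue in the 46 libraries. In edgeR 0 of 16140 genes passed, the smallest adjusted p was 0.152, and 719 genes (4.45%) had an unadjusted p under 0.05. DESeq2 called 2 and limma voom with weights by group 0. Among the shared genes 49 (6.46%) had an unadjusted interaction p under 0.05. A p that misses the threshold does not show equal changes, so the intervals are given. The 95% interval of the interaction lay within 2-fold for 747 shared genes (98.5%), within 1.5-fold for 681 (89.8%) and within 1.25-fold for 328 (43.3%). Over all genes tested these shares were 77.9%, 48.7% and 13.6%. The median half-width over shared genes was 0.24, beside their median diet change of 0.23, so intervals of this width do not show equal changes.

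Because intact and lesion libraries are different samples, each tissue can be used to pick genes and the other to read them. The counts that follow are of genes tested in both tissues. Of 387 genes higher on the ketogenic diet in intact brain at an unadjusted p under 0.01, 356 (92.0%) were higher in lesions, where 54.6% of all genes were. Of 329 lower genes, 265 (80.5%) were lower in lesions, where 45.4% of all genes were. Picked in lesions at the same threshold, 441 of 490 higher genes (90.0%) were higher in intact brain and 311 of 353 lower genes (88.1%) were lower there, beside 50.7% and 49.3% of all genes. Genes picked in intact brain had median changes of 0.15 and -0.13 in lesions, and genes picked in lesions had 0.16 and -0.14 in intact brain. At an unadjusted p under 0.05 in both tissues, 495 of the 14661 genes (3.38%) had the same sign and 14 (0.0955%) opposite signs. Genes vary together between libraries, as described next, so these shares do not rest on independent genes and carry no test. Each sign is that of a difference between groups, not of every library. On genes picked in the other tissue, 10 of 19 MCAO_KD and 7 of 8 Intact_KD libraries lay above the midpoint of the diets, as given below.

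The shared genes rose and fell together also among libraries of the same group. After the mean of each group was taken out, the mean Pearson correlation between pairs of higher genes was 0.26 over the 46 libraries, and between pairs of lower genes 0.24. Between a higher and a lower gene it was -0.19. The pattern had the same form within each tissue: 0.29, 0.25 and -0.20 over the 16 intact libraries, and 0.25, 0.24 and -0.19 over the 30 lesions. Libraries of one diet thus differed from each other along the same contrast of genes that separated the diets. The genes were picked by diet in the same libraries, and genes that vary together can be called together. These correlations are also across libraries that share scaling and library depth, and are given as a description. The first principal component of this variation held 30.3% of the variance of shared genes in intact brain, 29.1% in lesions and 25.5% over all libraries. For all genes tested it held 19.6%, 45.7% and 36.7%, which is less in intact brain and more in lesions and over all libraries. Whether the component of all genes is the same contrast was not tested.

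To read each library on genes that it did not help to choose, the joint fit was repeated 46 times with 1 library left out. In each repeat the left-out library was given the mean log2 CPM of the genes then called higher minus that of the genes then called lower. The value was taken from the midpoint of the diets in its tissue, so that a library on the ketogenic side is above 0. Of the 46 libraries 38 lay on the side of their own diet. All 8 Intact_AL libraries were below 0, from -0.56 to -0.040 with a median of -0.15. Intact_KD ran from -0.35 to 0.48 with a median of 0.24, and 6 of 8 were above 0. MCAO_AL ran from -0.41 to 0.15 with a median of -0.17, and 9 of 11 were below 0. MCAO_KD ran from -0.22 to 0.55 with a median of 0.25, and 15 of 19 were above 0. The diets therefore overlapped in both tissues. Intact_KD library 59 lay farthest on the other diet's side, at -0.35. Its 20 most abundant genes held 23.5% of counts, the highest share in its group. Intact_KD library 45 had the next highest share, 22.6%, and lay at 0.448. The part of the share in these positions was not tested.

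Genes picked in one tissue were also read library by library in the other. Here genes had to pass the filters of the joint fit and of the picking tissue only, so slightly more entered. With 498 higher and 358 lower genes picked in lesions at an unadjusted p under 0.01, all 8 Intact_AL libraries were below the midpoint, from -0.43 to -0.029, and 7 of 8 Intact_KD libraries were above it, with a range from -0.22 to 0.42. With 390 higher and 330 lower genes picked in intact brain, 8 of 11 MCAO_AL libraries were below the midpoint and 10 of 19 MCAO_KD libraries were above it. MCAO_KD spread widely on those genes, from -0.34 to 0.88 (SD 0.37, n = 19), against an SD of 0.17 (n = 11) in MCAO_AL. Libraries 31, 27 and 29 of MCAO_KD lay highest, at 0.883, 0.845 and 0.65, with axis positions of 0.423, 0.286 and 0.634. Libraries 33, 5, 39 and 37 lay lowest, from -0.337 to -0.261, with axis positions from 1.27 to 1.40. But library 9 (position 0.566) lay at 0.139 and library 15 (1.38) at 0.0665. In MCAO_AL, libraries 70 and 71 lay highest, at 0.157 and 0.124, with positions of 0.616 and 0.472. The part of axis position in this spread was not tested. The midpoint was set from the libraries read, so the group means are symmetric by construction. Whether the 2 directions of reading differ was not tested.

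**Figure D3:**
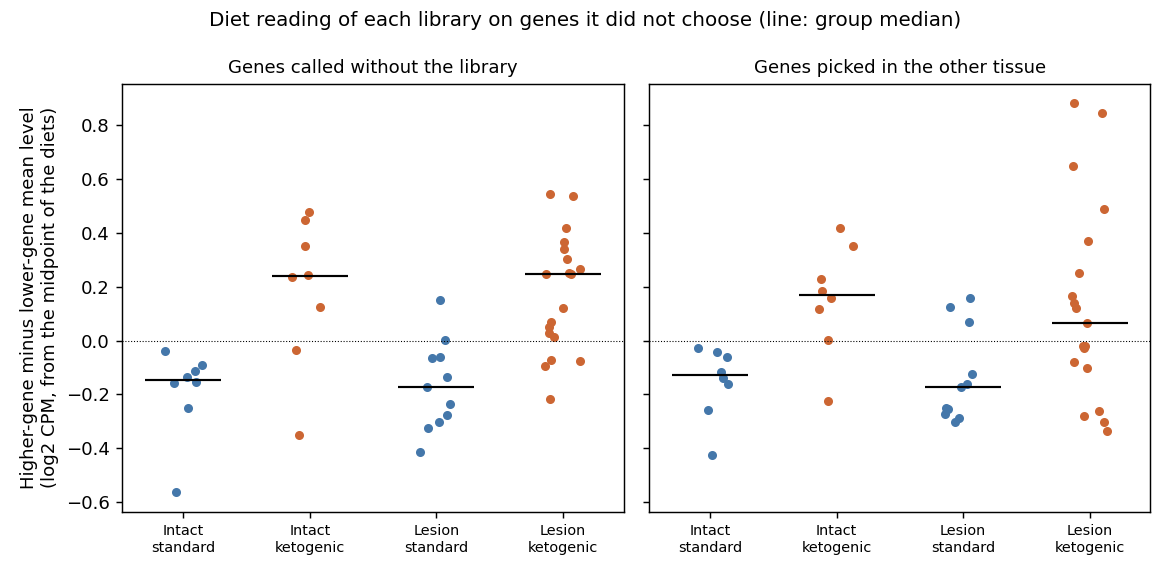
Mean log2 CPM of higher genes minus that of lower genes for every library (points; line, group median), measured from the midpoint of the diets in its tissue, with genes called in the joint fit without that library (left) and genes picked in the other tissue (right). On the left 38 of 46 libraries lie on the side of their own diet, with medians of -0.15 and 0.24 in intact brain and -0.17 and 0.25 in lesions. On the right the medians are -0.128 and 0.171 in intact brain and -0.171 and 0.0665 in lesions. There 10 of 19 MCAO_KD libraries lie above 0.

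Shared genes were expressed at middling to high levels. Their median level was 39.7 CPM, with a middle range from 19.9 to 71.2 CPM, beside a median of 21.0 CPM for all genes tested. Higher genes had a median of 43.2 CPM and lower genes of 35.7 CPM. Calls were rarer at low levels: 0.534% of the 1497 genes under 1 CPM were called, 1.87% of the 4065 genes from 1 to 10 CPM, 6.64% of the 8513 genes from 10 to 100 CPM and 5.62% of the 2065 genes above that. The median standard error fell from 0.24 under 1 CPM to 0.08 from 10 to 100 CPM on the log2 scale. The median size of the shared changes fell likewise, from 0.58 under 1 CPM (3 genes) and 0.36 from 1 to 10 CPM (75 genes) to 0.22 from 10 to 100 CPM. How far counting error or spread between libraries set this was not tested. The same fit gave each shared gene's difference between lesions and intact brain, which uses the same libraries as the diet change. Its median was -0.10 for the higher and -0.31 for the lower genes, and -0.0026 over all genes tested.

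With no names to describe, 2 higher and 2 lower genes are shown by ID, in each direction the one with the largest joint change and the one with the smallest p. The 4 were chosen by their joint change, so their values illustrate the shared genes and support nothing further. Levels are in CPM after TMM scaling.

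ENSRNOG00000014287 had the smallest p among the higher genes. Intact_AL ran from 46.5 to 58.1 CPM with a median of 53.1, and Intact_KD from 52.7 to 68.3 CPM with a median of 59.5. MCAO_AL ran from 44.6 to 59.2 CPM with a median of 53.9, and MCAO_KD from 58.0 to 72.7 CPM with a median of 63.1. The diets overlapped in both tissues, but 17 of 19 MCAO_KD libraries lay above every MCAO_AL library, as did 4 of 8 Intact_KD libraries above Intact_AL. The joint log2 fold change was 0.24 (SE 0.036, edgeR adjusted p = 0.000599). It was 0.18 (SE 0.071) in intact brain, where the adjusted p of 0.253 did not pass, and 0.28 (SE 0.045, adjusted p = 0.0122) in lesions. The call held in all 11 other fits and without each of the 46 libraries, with log2 fold changes from 0.22 to 0.25.

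ENSRNOG00000007829 had the smallest p among the lower genes. Intact_AL ran from 36.8 to 50.2 CPM with a median of 44.1, and Intact_KD from 24.0 to 41.4 CPM with a median of 34.8. MCAO_AL ran from 28.6 to 34.9 CPM with a median of 31.6, and MCAO_KD from 22.9 to 31.5 CPM with a median of 25.5. No ketogenic library rose above the standard-diet median of its tissue, and 16 of 19 MCAO_KD libraries lay below every MCAO_AL library. The joint log2 fold change was -0.32 (SE 0.052, edgeR adjusted p = 0.000599), with -0.40 (SE 0.11, adjusted p = 0.139) in intact brain and -0.28 (SE 0.051, adjusted p = 0.0189) in lesions. This call too held in all 11 other fits and without each library.

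ENSRNOG00000019183 had the largest rise, which rested on 1 library in lesions. Intact_AL ran from 0.122 to 1.59 CPM with a median of 1.07, and Intact_KD from 1.29 to 2.64 CPM with a median of 2.21. MCAO_AL ran from 0.45 to 3.39 CPM with a median of 1.37, and MCAO_KD from 0.58 to 119 CPM with a median of 1.73. The highest value belonged to MCAO_KD library 27, with the next at 8.41 CPM. Without that library the MCAO_KD mean fell to 2.39 ± 1.8 CPM (SD, n = 18), the joint log2 fold change from 1.98 (SE 0.55, edgeR adjusted p = 0.0283) to 0.75 (SE 0.25), and the call was lost (adjusted p = 0.0657). In intact brain 6 of 8 Intact_KD libraries lay above every Intact_AL library, but the fitted change of 1.05 (log2, SE 0.28) did not pass there (adjusted p = 0.138).

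ENSRNOG00000012609 had the largest fall. Intact_AL ran from 0.265 to 2.57 CPM with a median of 1.75, and Intact_KD from 0.651 to 1.56 CPM with a median of 0.959. MCAO_AL ran from 0.613 to 3.60 CPM with a median of 1.33, and MCAO_KD from 0.225 to 2.23 CPM with a median of 0.907. The groups overlapped in both tissues, while 8 of 8 Intact_KD and 17 of 19 MCAO_KD libraries lay at or below the standard-diet median of their tissue. The joint log2 fold change was -0.77 (SE 0.21, edgeR adjusted p = 0.0241), with the same value of -0.77 (SE 0.33) in intact brain and -0.76 (SE 0.27) in lesions, neither of which passed alone (adjusted p = 0.279 and 0.160). Without MCAO_AL library 69, the highest of its group, the call was lost (joint log2 fold change -0.64, SE 0.21, adjusted p = 0.0543).

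**Figure D4:**
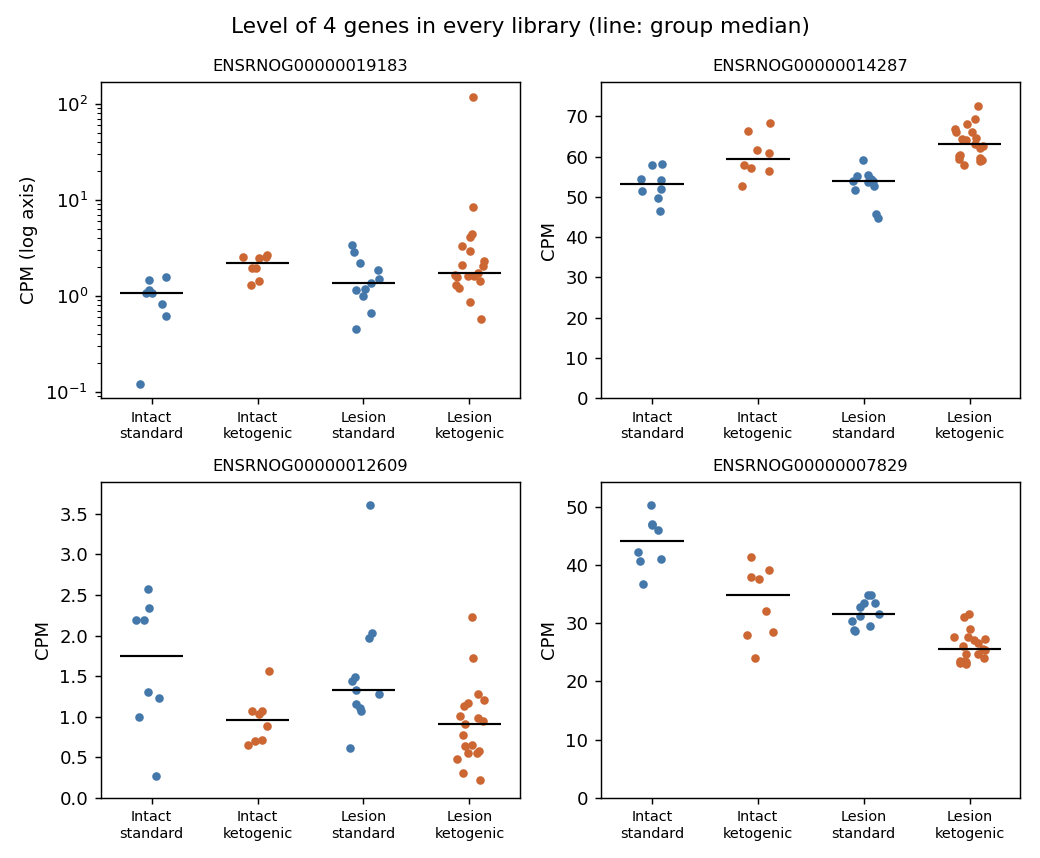
Level of 4 shared genes in every library (points; line, group median) in CPM after TMM scaling, on a log axis for ENSRNOG00000019183 and a linear axis for the others. ENSRNOG00000014287 is higher and ENSRNOG00000007829 lower on the ketogenic diet in both tissues by their medians, and a single lesion library at 119 CPM sets the high mean of ENSRNOG00000019183.

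Clean separation of the diets was rare. The ranges of the diets did not overlap for 13 of 16140 genes (0.0805%) in intact brain, of which 2 were shared genes, and for 0 genes in lesions. Ranges are less likely to separate with 11 against 19 libraries than with 8 against 8. The counts of the tissues are therefore not comparable. With 0 genes in lesions, 0 shared genes could separate the diets in both tissues. Apart from those 2 in intact brain, the shared genes differed between diets as group shifts with overlapping libraries.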

How the data were processed

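RNA was extracted with a column kit from intact brain or lesions, and polyA libraries were made with a directional kit, per the labels' protocols. The submitters' processing notes name build mRatBN7.2, HTSeq 0.7.2, HISAT2 2.0.5, DESeq2 1.42.0 and Cufflinks. The annotation release and strand setting are not given in the sources used here. Antisense or overlapping genes, and genes with near-identical copies, may therefore share reads. The authors deposited raw counts per gene with no normalization. The series table held 0 cells that differed from the 46 per-sample files, and 39 columns of samples not described here were not used.

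Counts were fitted in R 4.3.3 with edgeR 4.0.16 (filterByExpr over the 4 groups, TMM scaling, robust quasi-likelihood F test, Benjamini-Hochberg over all genes tested). The joint fit had tissue and diet as additive terms, the tissue fits diet alone, and the interaction fit tissue by diet. Log2 CPM used a prior count of 2. The joint fit was also run on simulated counts with known changes, in which genes varied independently, unlike here. That run does not give the error rate of the calls reported. The alternatives were DESeq2 1.42.0, RLE or no scaling, no low-count filter or a mean of at least 1 CPM, limma 3.58.1 voom with quality weights by group or per library, equal weights for the tissues, 2 surrogate variables from sva 3.50.0, the 20-gene share or axis position as covariate, and leaving out each library. The axis position projects log2 CPM on the difference between mean lesion and mean intact profiles.

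No replicate pair was alike within sampling noise (smallest chi-square per degree of freedom 12.2). The comparison, its lists and its alternatives were chosen with earlier results of these data known. Without gene names the 53 gene lists, with 1045 genes, could not be read. The naming rule (called, one sign in both tissues, mean of at least 1 CPM, largest change or smallest p) was narrowed to 1 ID of each kind per direction after the values were seen.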

Additional observations from a re-analysis of the deposited data

Results flagged for a closer look

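Among 18 sets of 8 intact libraries checked for a library far from the rest, 2 had one, where chance alone gives about 1 in 20. On the genes called without it, Intact_AL library 84 lay at -0.56 on the diet reading, farthest to the standard-diet side, with the next library of its group at -0.25. ENSRNOG00000012609, which was lower on the ketogenic diet, stood at 1.56 CPM in Intact_KD library 49, with the next at 1.07 CPM.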

How the results depend on the processing

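Of the 765 joint calls, 439 were kept without every single library and 159 (87 higher and 72 lower) were kept in that way and in all 11 other fits; no call turned its sign. Leaving out 1 library gave from 494 calls (without MCAO_AL library 82) to 1029 (without Intact_KD library 59), from 491 to 1023 of one sign and from 290 to 580 at an unadjusted p under 0.05 in each tissue; only library 82 moved the calls by over 1.5 times. The counts of calls, of one-sign calls and of those at an unadjusted p under 0.05 in each tissue were 207, 202 and 62 with the 20-gene share as covariate, 2531, 2493 and 923 with the axis position, 3003, 2941 and 1097 with 2 surrogate variables and 1417, 1394 and 678 with voom weights per library. With voom weights by group there were 1181 calls, 1169 of one sign. Higher calls made up 49.0% with voom weights per library, 47.6% with surrogate variables and 48.2% with the axis position. With DESeq2, RLE scaling, library totals only, equal tissue weights and both filters the calls ran from 633 to 1121.

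In intact brain alone the 0 calls became 259 with DESeq2, 63 in the fit over 4 groups and 1 with the axis position. In lesions alone the 117 became 506 with DESeq2, 183 with library totals only, 21 without a low-count filter, 77 in the fit over 4 groups and 1719 with the axis position, and 83 with the 20-gene share; covariates for single tissues were added after seeing the data. The interaction had 2 calls with DESeq2. The call of ENSRNOG00000019183 was lost in 4 of 11 other fits (adjusted p up to 0.148) and that of ENSRNOG00000012609 in 2 (up to 0.0924). The causes were not tested. No paired analysis was possible because the groups share no sample numbers.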
